A study of Mus musculus with 9 samples.

Results

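CTCF interactions that had no counterpart in the RAD21 list were examined in the E14 line of mouse embryonic stem cells, in which CTCF was fused to an auxin-inducible degron (genotype CTCF AID). They were chosen by their contact count and by the RAD21 list: a pair of 1 kb bins with at least 10 CTCF contacts was taken when no RAD21 interaction lay within 1 bin (1000 bp) at both of its ends. Of 49630 CTCF interactions, 40240 had at least 10 contacts, and 19061 of these were absent from the RAD21 list by this rule. The other 21179, here called listed interactions, served for comparison.

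In MNase HiChIP, chromatin is cut with micrococcal nuclease, nearby ends are ligated inside the nuclei, and an antibody pulls down the ligation products bound by 1 protein or mark. The antibodies were against CTCF (2 libraries) and the cohesin subunit RAD21 (3 libraries), both from cells without the auxin IAA, and against H3K27ac, which marks active regulatory elements, from cells without IAA (2 libraries) and after 12 h of IAA (2 libraries). All 9 libraries came from the CTCF AID line grown without serum in LIF, PD0325901 and CHIR99021, so the untreated groups carry the degron too, and cells with untagged CTCF were not analysed here. IAA triggers the degradation of AID-tagged proteins. Whether the line is 1 clone is not given in the sources used here. The level of CTCF after IAA was not analysed here. The libraries of a group were pooled into 1 interaction list, so neither levels nor differences carry a replicate error. CTCF and RAD21 interactions were listed only between bins that the authors flagged as peaks. Shares carry 95% Wilson intervals, and their differences Newcombe intervals made from these. Both cover counting error only, and bin pairs that share an anchor are not independent.

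CTCF is a zinc-finger protein that binds a long DNA motif read in a fixed direction. Cohesin, a ring complex with RAD21 as a core subunit, extrudes loops of chromatin and stalls at bound CTCF, most efficiently where the motif points toward the oncoming ring. Loops therefore tend to join a forward motif on the left to a reverse motif on the right, the convergent arrangement. Many CTCF sites in embryonic stem cells also lie at promoters.

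The arrangement of motifs differed between absent and listed interactions, so motif core matches are shown for the absent interaction with the most contacts in each arrangement, and for the strongest convergent listed interaction. These examples were chosen after their values were seen. The 30-base stretches come from the RefSeq GRCm38 assembly and are written 5′ to 3′ on the strand of the motif. Capitals mark the 14-base CTCF motif core, matched with at most 1 mismatch, on both strands; 2.75% of all 1 kb bins hold a match.
Absent, convergent, left (exon of B3gnt9), chr8:105254209-105254238, forward strand: ctccgcctCCAGCAGGGTGCGCcagtgcga
Absent, convergent, right (exon of Tradd), chr8:105259848-105259877, reverse strand: caagcctaCCGCGAGGGGGCGCtgcgcacc
Absent, both forward, left (intergenic), chr11:94621653-94621682, forward strand: cagacccaCCAGAAGAGGGCAGtgcatccc
Absent, both forward, right (bin of the Lrrc59 start site), chr11:94629686-94629715, forward strand: cagcctggACGGCAGAGGGCGCgccggtac
Absent, both reverse, left (exon of Pik3r2), chr8:70769546-70769575, reverse strand: tctcctgcTCACCAGGGGGCGCtcgtgcgc
Absent, both reverse, right (bin of a Pik3r2 start site), chr8:70776701-70776730, reverse strand: ggctatttCCGCCTGGGGGCGGgcccgaag
Absent, divergent, left (bin of the Cenps start site), chr4:149137630-149137659, reverse strand: gcgagctgTCGCCAGGGGGCGCgcgcggga
Absent, divergent, right (intergenic), chr4:149144587-149144616, forward strand: cagaatggCCACTAGGTGTCACcattgttc
Listed, convergent, left (intergenic), chr15:101988276-101988305, forward strand: cacgttgtCCACCAGGAGGCGCcggaaacc
Listed, convergent, right (intergenic), chr15:102065812-102065841, reverse strand: ctagaaggCCACCAGGGGGCAGagaagggc

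The strongest absent pair of each arrangement was short. The convergent pair at B3gnt9, which encodes a glycosyltransferase, and Tradd, which encodes an adaptor of TNF receptor signalling, held 91 CTCF contacts across 5 kb, 1.56 times the 58.2 contacts the authors' model predicted. Its nearest RAD21 interaction lay 5 bins away. The forward pair at Lrrc59 held 90 contacts across 8 kb, 6.45 times the prediction. The pair within Pik3r2, which encodes a regulatory subunit of phosphoinositide 3-kinase, held 96 contacts across 7 kb, 3.73 times the prediction. The divergent pair at Cenps, a gene for a centromere protein, held 90 contacts across 7 kb and 1.63 times the prediction. The listed convergent pair on chromosome 15 held 433 contacts across 77 kb, 38.1 times the prediction.

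Absent interactions were weaker than listed ones, a difference that the choice by contact count and by the RAD21 list shapes and that is given as a description. Their median contact count was 14, with 95% of them at 29 or fewer, against a median of 20 for listed ones. The strongest absent interaction had 170 contacts and the strongest listed one 470. Contacts over the number predicted by the authors' model, which accounts for distance and coverage, had a median of 3.96 in absent and 5.87 in listed interactions. On the log2 scale the medians differed by -0.57. Below 20 kb the medians over prediction were alike, at 2.84 and 2.85, and at 10 kb or less they were 2.75 and 2.51. The lower of the 2 anchor coverages had a median of 1306 in absent and 1644 in listed interactions, and the higher had medians of 3919 and 3928.

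The share of CTCF interactions that were absent fell steeply with contact count. It was 65.7% (65.0 to 66.4) at 10 to 14 contacts, 52.3% at 15 to 19, 35.1% at 20 to 29, 16.7% at 30 to 49 and 5.02% at 50 to 99. Only 5 of 332 interactions with 100 contacts or more were absent, or 1.51% (0.645 to 3.48). Just below the limit, at 9 contacts, 73.8% of interactions had no RAD21 counterpart, against 70.0% just above it, at 10 contacts.

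The RAD21 data were shallower than the CTCF data. The authors' model rested on 1517698 contacts for RAD21 and 2839756 for CTCF, and the RAD21 list held 23630 interactions. In the 16320 pairs with at least 10 CTCF contacts that were called in the same bins for both proteins, the median ratio of RAD21 to CTCF contacts was 0.64 (quartiles 0.50 and 0.81). Those pairs were called in both lists, which favours high ratios. RAD21 contacts of pairs that were not called were not analysed here, so absence from the RAD21 list is not a count of 0. The part of depth in it was not tested.

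**Figure D1:**
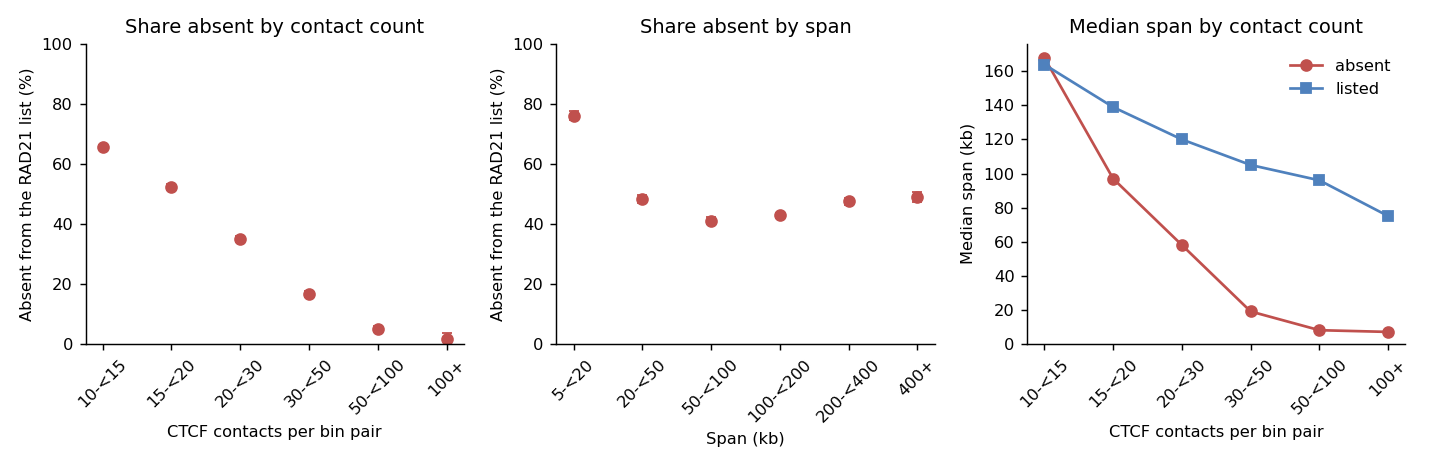
Share of CTCF interactions with at least 10 contacts that were absent from the RAD21 list, by contact count (left) and by span in kb (middle), with 95% Wilson intervals, and the median span of absent (circles) and listed (squares) interactions by contact count (right). The share absent went from 65.7% to 1.51% with contact count and was highest, at 76.1%, below 20 kb.

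Span set the absent interactions with many contacts apart. Over all absent interactions the median span was 122 kb, close to the 128 kb of listed ones, and it was the shorter in 16 of 20 chromosomes. Among interactions of 10 to 14 contacts the medians were 168 kb for absent and 164 kb for listed. At 20 to 29 contacts they were 58 kb and 120 kb, at 30 to 49 contacts 19 kb and 105 kb, and at 50 to 99 contacts 8 kb and 96 kb. Contacts over prediction were lower in absent interactions of these counts. The medians were 3.12 and 7.68 at 30 to 49 contacts, and 2.57 and 10.9 at 50 to 99. The share absent was 76.1% (74.5 to 77.5) below 20 kb and 41.1% to 48.9% in the classes from 20 kb upward. With spans of 20 kb or more alone, a limit chosen after the values were seen, the direction of the difference turned, with medians of 144 kb for absent and 133 kb for listed. It turned too at a CTCF q-value of 0.01 or less, with medians of 143 kb and 134 kb. Pairs below 20 kb took the same share of both lists, 6.53% for CTCF and 6.5% for RAD21.

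By the rule, no absent interaction had a RAD21 pair within 1 bin at both of its ends. This choice also shapes the distances and clusters given here, which are descriptions. A RAD21 pair was 2 bins off, just outside the limit, for 992 of them (5.20%), with a median of 15 contacts, while 4859 listed interactions had theirs 1 bin off, with a median of 14. For 71.9% no RAD21 pair lay within 10 bins at both ends. When bin pairs within 2 bins at both ends were joined into clusters, the 19061 absent interactions fell into 16918 clusters, of which 16126 held absent interactions alone, and 5.19% of absent interactions shared a cluster with a listed one. The share absent ranged from 43.9% to 55.9% across 20 chromosomes.

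An anchor could be part of the RAD21 list through another partner. A RAD21-list anchor lay within 1 bin of both ends of 8907 absent interactions, or 46.7% (46.0 to 47.4), of 1 end in 8883 (46.6%), and of neither end in 1271 (6.67%). By the rule every listed interaction has such anchors at both ends. Contacts had a median of 13 where neither end or 1 end was a RAD21-list anchor and 15 where both were, and the median span went from 56 kb through 97 kb to 156 kb. Whether other bins were RAD21 peaks was not analysed here.

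The arrangement of motif cores did not enter the rule. Both anchors had matches, each on 1 strand alone, in 5187 absent and 6616 listed interactions. The cores were convergent in 49.9% of the absent ones (48.6 to 51.3) and in 78.2% of the listed ones (77.2 to 79.2), a difference of -28.3 points (-30.0 to -26.6). The convergent share was lower among absent interactions in all 20 chromosomes. Absent interactions had both cores on the forward strand in 23.2% and both on the reverse strand in 22.0%, against 10.2% and 10.7% of listed ones, so the same-strand (tandem) arrangement made up 45.2% and 20.9%. Divergent cores were found in 4.86% of absent and 0.877% of listed interactions. With the listed interactions weighted to the spans and contact counts of the absent ones, their convergent share was 74.4%.

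Absent interactions with more contacts were convergent less often than those with fewer. At 20 contacts or more, the cores were convergent in 34.1% of 1057 absent interactions (31.3 to 37.0) and in 79.3% of 4303 listed ones. At 10 to 19 contacts the shares were 54.0% and 76.2%. The convergent share of absent interactions rose with span, from 21.9% below 20 kb to 70.4% at 400 kb or more, and lay below that of listed ones in each of the 6 span classes (47.4% and 87.3% in the outer classes). Contact count and span were not separated in these shares. It also differed with the anchors. It was 66.9% (61.1 to 72.3) where neither end was a RAD21-list anchor, 60.7% (58.5 to 62.9) where 1 end was, and 41.6% (39.8 to 43.3) where both were. In that last group tandem cores were the most frequent, at 52.9%.

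**Figure D2:**
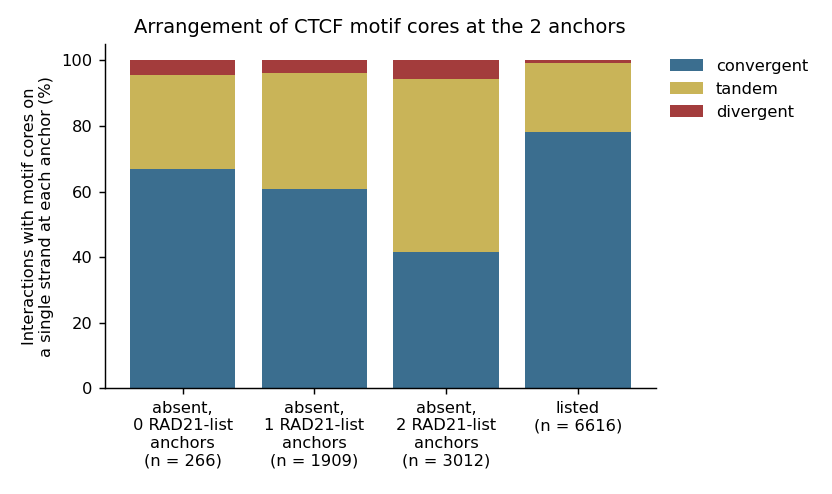
Share of interactions with convergent, tandem and divergent CTCF motif cores, in percent of those whose anchors each matched on 1 strand alone, for absent interactions with 0, 1 or 2 RAD21-list anchors and for listed interactions. The convergent part is 41.6% for absent interactions with RAD21-list anchors at both ends and 78.2% for listed ones.

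Where both ends were RAD21-list anchors, their RAD21 partners were compared. Of the 8907 such absent interactions, 4941 had a common partner, a bin that each of the ends contacted in the RAD21 list within 1 bin, or 55.5% (54.4 to 56.5). Listed interactions had one in 39.3% (38.6 to 39.9). Within arrangements the order differed. The share was higher among absent interactions for convergent cores (42.5% against 34.9%), and lower for cores both reverse (60.4% and 64.5%) and divergent (44.9% and 55.2%), where the intervals overlapped. With both cores forward it was 66.0% and 61.4%, with overlapping intervals too. Its side followed the strand of the cores. With both cores forward, 58.1% of 812 absent interactions had a common partner to the right of both anchors and 4.80% to the left. With both cores reverse, 52.4% of 781 had one to the left and 4.35% to the right. Convergent absent pairs had a common partner between the anchors most often, in 26.1%. Listed tandem pairs showed the same sides, with 50.7% to the right when forward and 53.4% to the left when reverse, so the side was not particular to the absent ones. The RAD21 list took part in choosing the members, and these shares are descriptions.

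**Figure D3:**
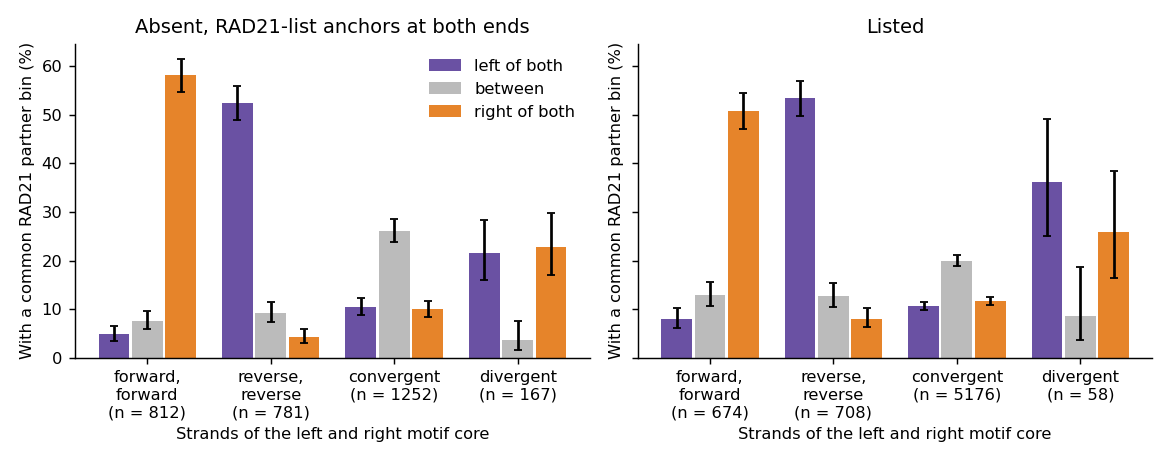
Share of interactions, in percent with 95% Wilson intervals, whose anchors shared a RAD21 partner bin to the left of both, between them or to the right of both, by the strands of the motif cores, for absent interactions with RAD21-list anchors at both ends (left panel) and listed interactions (right panel). Pairs with forward cores shared partners mostly on the right (58.1% of absent ones) and pairs with reverse cores mostly on the left (52.4%).

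Single anchor bins were then compared by the interactions they took part in. Absent interactions used 19691 different bins. Of these, 9826 were also anchors of listed interactions, 1569 were not but lay within 1 bin of a RAD21-list anchor, and 8296 were neither. A motif core was found in 61.4% (60.5 to 62.4) of the bins that served both kinds, in 33.9% (32.9 to 34.9) of the 8296 bins and in 34.9% of the 8986 bins that served listed interactions alone. Of all 2647053 1 kb bins of the assembled chromosomes without unknown bases, 2.75% held one. Bins that served both kinds had a median CTCF coverage of 2622 and took part in a median of 4 interactions, up to 39. The 8296 bins had a median coverage of 864 and a median of 1 interaction, and the bins of listed interactions alone had medians of 1092 and 1.

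Protein-coding start sites lay more often in the bins of absent interactions alone. They were found in 22.6% (21.7 to 23.5) of the 8296 bins without a RAD21-list anchor nearby and in 21.7% (19.7 to 23.8) of the 1569 with one. Bins that served both kinds held one in 11.2%, bins of listed interactions alone in 10.4%, and all 1 kb bins of the genome in 1.07%. Of the 8296 bins, 24.7% held a start site of any annotated gene, 17.9% overlapped an exon without one, 28.7% lay in an intron and 28.7% outside annotated genes. Median GC content was 48.2% to 50.5% in the 4 sets of bins and 41.4% over all genome bins.

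At the level of interactions, a start site lay at 1 or both ends of 28.2% (27.6 to 28.8) of absent and 17.6% (17.1 to 18.1) of listed ones, a difference of 10.6 points (9.76 to 11.4). The share was higher among absent interactions in 19 of 20 chromosomes and in each of the 6 span classes, by 4.03 to 13.1 points. Listed interactions weighted to the spans and contact counts of the absent ones reached 19.7%. Start sites at both ends were found in 750 absent (3.93%) and 304 listed (1.44%) interactions. Among absent interactions the share with a start site was 34.5% where neither end was a RAD21-list anchor, 31.2% where 1 was and 24.3% where both were. Span, which differed between these groups, was not held fixed.

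**Figure D4:**
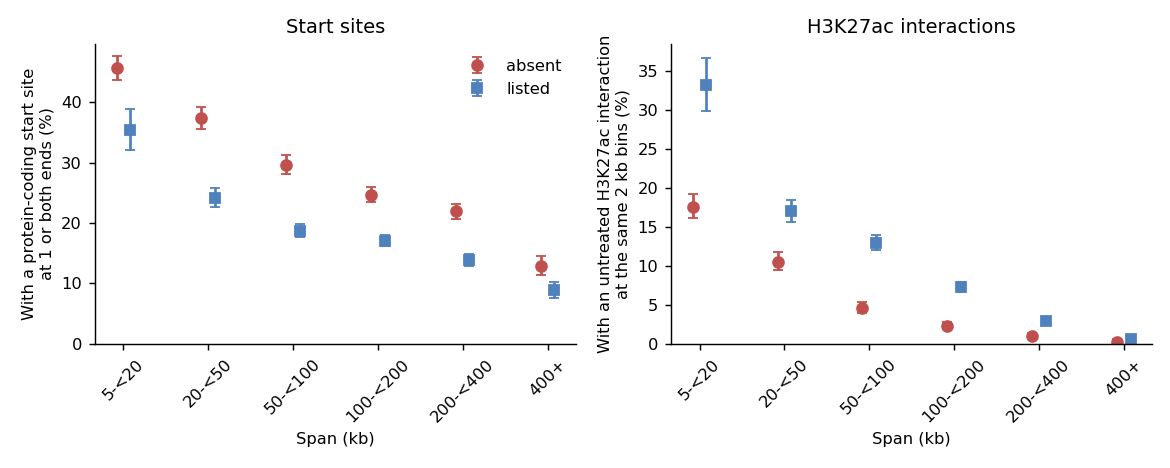
Share of absent (circles) and listed (squares) CTCF interactions, by span in kb, with a protein-coding start site at 1 or both ends (left) and with an untreated H3K27ac interaction at the same 2 kb bins (right), in percent with 95% Wilson intervals. Absent interactions lie above listed ones for start sites in each span class (28.2% against 17.6% over all spans) and below them for H3K27ac (5.25% against 9.21%).

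Among absent interactions with start sites at both ends, the strongest ran on chromosome 14 from 52257001 to 52258000, the bin of a start site of Chd8, which encodes a chromatin remodeller, to 52279001 to 52280000, which holds start sites of Rab2b, a small GTPase gene, and Tox4. It held 132 CTCF contacts across 22 kb, 7.38 times the prediction. Both ends were RAD21-list anchors, with at most 9 and 19 RAD21 contacts in other pairs, and no RAD21 pair lay within 10 bins. Its H3K27ac contacts were 21 without and 16 after IAA. On chromosome 18 a pair from 10610001 to 10611000, at Esco1, whose product acetylates cohesin, to 10617001 to 10618000, at the spliceosomal gene Snrpd1, held 94 CTCF contacts across 7 kb, with no RAD21-list anchor at either end and 39 and 23 H3K27ac contacts. The longest of the named start-site pairs joined Vps18, a gene of the vesicle-tethering complexes, and Chp1 with Exd1 across 259 kb of chromosome 2 (119288001 to 119289000 and 119547001 to 119548000). It held 58 contacts, 10.6 times the prediction, and the Vps18 end had up to 89 RAD21 contacts with another bin. The others joined genes close together, namely Madcam1 and Tpgs1 with 75 contacts, the bin of Fdxacb1 and 1110032A03Rik with Alg9 (54 contacts), and Ckap2 with Vps36 (51 contacts), each across 5 to 7 kb.

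The pairs that stood highest over the prediction had no RAD21-list anchor. The strongest absent interaction of all lay on chromosome 4 between 127008001 to 127009000 and 127015001 to 127016000, outside annotated genes, with 170 contacts where 4.37 were predicted, 38.9 times as many. Its anchors had coverages of 385 and 2326, and its H3K27ac contacts were 18 without and 30 after IAA. An intergenic pair on chromosome 5, between 122192001 to 122193000 and 122200001 to 122201000, held 80 CTCF contacts, 26.3 times the prediction, and 119 and 143 H3K27ac contacts. A pair on chromosome 6, between 3184001 to 3185000 and 3191001 to 3192000, reached 31.4 times with 37 CTCF contacts and 25 and 38 H3K27ac contacts. Its prediction was 1.18 contacts, and its anchors had coverages of 948 and 125. Those of the chromosome 5 pair were 935 and 599. The 5th percentile of the lower anchor coverage was 421 in absent interactions. On chromosome 16, a pair from an exon of Robo1, an axon guidance receptor gene (72995001 to 72996000), to an intron of 4930500H12Rik (73155001 to 73156000) held 48 contacts across 160 kb, 24.2 times the prediction, with no H3K27ac interaction listed. None of these 4 had motif cores at both ends.

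Other strong or long pairs were of different kinds. On chromosome 2, a pair from the start site of the noncoding gene Snhg7os (26640001 to 26641000) to an intergenic bin (26647001 to 26648000) held 138 contacts, 2.55 times the prediction, with RAD21-list anchors at both ends. A pair within an intron of Pla2g5, a phospholipase gene on chromosome 4, held 117 contacts, only 1.71 times the prediction, and a RAD21 pair lay 3 bins away. Among pairs not described so far with a RAD21-list anchor at neither end, those with the most contacts were at Pkn3 and the Zdhhc12 start site with 54 contacts, within an intron of Nxpe3 with 49, and in intergenic sequence of chromosome 4 with 42. The longest spanned 1899 kb on chromosome 12, 1863 kb on chromosome 1 and 1814 kb on chromosome 11, with 11, 12 and 11 contacts and no RAD21-list anchor at either end.

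Start sites of 3465 of 21875 protein-coding genes lay in an anchor of an absent interaction, or 15.8% (15.4 to 16.3), and those of 2078 genes (9.50%) in an anchor of a listed one, with 1173 genes in both. Ribosomal protein genes had the highest share among 9 gene lists, though the intervals of other lists overlapped theirs, with 28 of 79 at absent anchors (35.4%, 25.8 to 46.4) and 13 at listed ones. Rpl22 had 66 contacts with a bin 8 kb away that overlaps one of its own exons, Rpl36 had 42 with the Lonp1 start site, and Rps21 had 41 with the start site of Adrm1, a proteasome subunit gene. Of 57 clustered protocadherin genes, which encode neuronal adhesion proteins, 15 were at absent anchors (26.3%, 16.6 to 39.0) and 10 at listed ones. Pcdhga3 and Pcdhgb1 were joined by 36 contacts.

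Of 28 pluripotency genes, 6 were at absent anchors (21.4%, 10.2 to 39.5, an interval that includes the share of all genes) and 5 at listed ones. The start-site bin of Tbx3, a repressor of differentiation genes, had 33 contacts across 10 kb, with 71 H3K27ac contacts without and 40 after IAA. Fgf4, a growth factor gene, had 20 CTCF contacts across 10 kb and 23 and 19 H3K27ac contacts. Nanog, a core transcription factor of pluripotency, had 20 CTCF contacts across 13 kb to an intergenic bin, and its strongest listed interaction had 38. Esrrb, an orphan nuclear receptor gene, had 16 across 19 kb within the gene and no listed interaction. Of 20 Nodal, BMP and FGF signalling genes, 5 were at absent anchors (25%, 11.2 to 46.9, again including the share of all genes) and 5 at listed ones. Etv4 and the Dhx8 start site were joined by 18 contacts, Fgf15 and an intron of Tpcn2 by 14 across 347 kb, and Id1 and the start site of the survival gene Bcl2l1 by 14.

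The other lists gave small counts. Of 18 cohesin and CTCF genes, 6 were at absent and 6 at listed anchors. After Esco1, described above, Ctcf itself came next in contacts, with 27 contacts across 40 kb in its absent and 31 in its strongest listed interaction. Of 39 Hox genes 6 were at absent anchors (15.4%, 7.25 to 29.7, close to the 15.8% of all protein-coding genes) and 4 at listed ones. Those at absent anchors included Hoxb5 with 44 contacts across 25 kb, Hoxa10 with 30 across 6 kb and Hoxc10 with 28 across 349 kb. Hoxc10 had 121 contacts in its strongest listed interaction. Of 41 lineage transcription factor genes, which act in later development, 3 were at absent anchors (Lhx2, Mesp1 and T, with 13 to 14 contacts) and 3 others at listed ones. Of 26 annotated imprinted genes, 5 were at absent anchors and 1 at a listed one. Inpp5f had 19 contacts with an intron of Mcmbp, and Zim1 had 19 with an intron of Peg3. Of 10 DNA methylation genes, Dnmt1 alone was at an absent anchor, joined to the Eif3g start site by 20 contacts, and 1 other was at a listed one. The intervals of these 4 other lists also included the share of all genes, except that of the cohesin and CTCF genes (16.3 to 56.3).

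Over all contact counts, H3K27ac interactions shared bins with a smaller part of the absent than of the listed interactions. An untreated H3K27ac interaction lay at the same 2 kb bins in 1000 absent interactions, or 5.25% (4.94 to 5.57), and in 1951 listed ones, or 9.21% (8.83 to 9.61). The difference was -3.97 points (-4.47 to -3.46) and had the same sign in all 20 chromosomes. It was negative in each of the 6 span classes, and its interval included 0 at 400 kb or more (-0.82 to 0.12). Listed interactions weighted to the spans and contact counts of the absent ones had a share of 9.89%. The direction depended on contact count, but span was not held fixed in the contact classes. Median spans were 58 kb for absent and 120 kb for listed interactions at 20 to 29 contacts. At 30 to 49 contacts they were 19 kb and 105 kb. The shares were 3.10% and 5.29% at 10 to 14 contacts and 5.63% and 7.30% at 15 to 19, but 9.44% and 8.17% at 20 to 29, a difference of 1.27 points whose interval included 0 (-0.01 to 2.61), and 14.1% and 11.6% at 30 to 49, a difference of 2.53 points (0.02 to 5.33). Absent interactions with neither end at a RAD21-list anchor had an H3K27ac interaction in 11.6%, those with 1 such end in 5.70% and those with both in 3.88%. The median span of these groups rose in the same order, from 56 kb through 97 kb to 156 kb. Span was not held fixed in these shares. At least 1 end was an H3K27ac-list anchor in 48.4% of absent and 46.2% of listed interactions, but below 20 kb in 61% and 77.8%. Both ends were such anchors in 16.9% and 18.8%, and in 19.4% of listed interactions weighted as above. Within contact classes, where span was not held fixed, the share was not lower in absent interactions. It was 12.6% and 12.5% at 10 to 14 contacts and 25.2% and 18.1% at 20 to 29. By span, it was lower in absent interactions in each class below 200 kb. It was 30.6% and 50.6% below 20 kb, and 13.3% and 16.0% from 100 to under 200 kb. From 200 to under 400 kb it was 10.5% and 8.93%, and at 400 kb or more 5.06% and 3.10%. After IAA the shares at the same bins were 3.03% for absent and 2.35% for listed interactions, and 4.49% for listed ones weighted as above, so that the direction turned with the weighting.

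Apart from the pairs above, 5 absent interactions were named for their H3K27ac contacts, and 4 of them spanned 5 to 15 kb. A pair on chromosome 6 between 128760001 to 128761000, an intergenic bin, and 128799001 to 128800000, in an intron of Gm44511, had 61 CTCF contacts across 39 kb, and 159 H3K27ac contacts without and 116 after IAA. Its log2 ratio, scaled to all H3K27ac interactions in both lists, was -0.43, with an adjusted p-value of 0.860 by the exact binomial test. Intergenic pairs on chromosome 4 (133095001 to 133096000 and 133103001 to 133104000) and chromosome 5 (118436001 to 118437000 and 118444001 to 118445000) had 16 and 13 CTCF contacts. Their H3K27ac contacts were 97 and 99 for the former, and 95 and 90 for the latter, without and after IAA. A pair within introns of Pigl had 78 and 65, and a pair from the Arih2 start site had 72 and 76.

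The fate of these H3K27ac interactions after IAA was then followed. The 1000 absent interactions fell on 876 untreated H3K27ac bin pairs, of which 869 held no listed CTCF interaction. Of the 869, 376 recurred in the IAA list with both bins unchanged, or 43.3% (40.0 to 46.6), against a background of 42.9% for all 36274 untreated H3K27ac interactions. With each bin free to shift by 1, the shares were 57.0% (53.6 to 60.2) and 65.7%. Of 1303 at listed CTCF interactions alone, 327 were called again, or 25.1% (22.8 to 27.5). The difference between the 2 classes was 18.2 points (14.1 to 22.2) and had the same sign in 19 of 20 chromosomes. Those at absent interactions were shorter, with a median of 24 kb against 60 kb, and had 14 against 12 contacts. Weighted to their spans and contact counts, the class at listed interactions reached 36.5%.

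By contact count, the 2 classes differed below 25 contacts. At 6 to 9 contacts 10.6% (6.63 to 16.5) at absent and 1.56% (0.716 to 3.36) at listed interactions were called again. At 10 to 14 contacts 27% (22.4 to 32.2) at absent and 13.3% (10.5 to 16.7) at listed interactions were called again, and at 15 to 24 contacts 59.5% and 42.5%. At 25 contacts or more the shares were 84.1% (77.0 to 89.2) and 81.9% (75.4 to 86.9), with overlapping intervals. Over all H3K27ac interactions the shares in these 4 classes were 14.7%, 30.9%, 55.3% and 82.9%, within the intervals at absent interactions in each class. By span, the direction turned below 20 kb, where 54.7% (49.5 to 59.7) at absent and 61.5% (54.3 to 68.3) at listed interactions were called again. At 20 to 49 kb the shares were 45.8% and 33%, at 50 to 99 kb 26.0% and 15.8%, and at 100 kb or more 25% and 10.1%. H3K27ac interactions at neither kind were called again in 43.5% over all spans, and in 45% when weighted to the spans and contact counts of those at absent interactions. By span their shares were 48.3%, 44.2%, 37.7% and 32.7%, below that at absent interactions in the shortest class and above it from 50 kb upward.

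**Figure D5:**
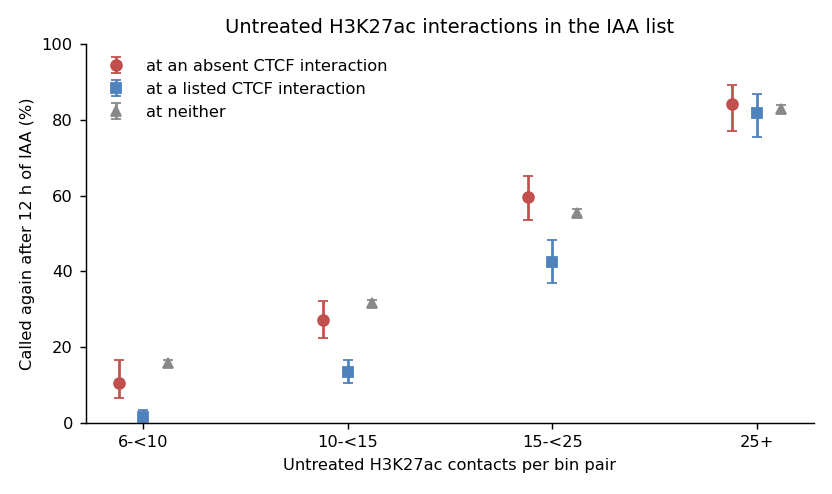
Share of untreated H3K27ac interactions called at the same bin pair after 12 h of IAA, in percent with 95% Wilson intervals, by untreated H3K27ac contact count, for those at absent CTCF interactions (circles), at listed ones (squares) and at neither (triangles). At 10 to 14 contacts the shares were 27%, 13.3% and 31.7%, and at 25 contacts or more all 3 lay between 81.9% and 84.1%.

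Contact counts in the 376 pairs called in both lists were compared by a two-sided exact binomial test, and p-values were adjusted by Benjamini-Hochberg over all 15551 such H3K27ac interactions. The test compares the pooled lists, not the conditions. One interaction at an absent CTCF interaction had an adjusted p-value under 0.05, which is 1 of 376, while over all interactions 21 were called, or 0.135%. It lay within introns of Fam189a1 on chromosome 7, between 64830001 to 64831000 and 64840001 to 64841000 as CTCF bins, and went from 65 to 23 H3K27ac contacts, a log2 ratio of -1.47 with an adjusted p-value of 0.0111. Its CTCF pair had 16 contacts, and 1 end was a RAD21-list anchor. Without adjustment, 20 of the 376 (5.32%) had a p-value under 0.05, with a background of 4.41%. At listed interactions 52 of 327 (15.9%) did, and 3 had an adjusted p-value under 0.05. The median log2 ratio was -0.11 (-0.15 to -0.06) at absent and -0.26 (-0.33 to -0.16) at listed interactions, against 0.03 over all, and 59.6% and 65.7% of the ratios were below 0, against 46.2% over all. The median log2 ratio was lower at high than at low untreated counts, and that count also sets these classes. At 6 to 9 contacts it was 0.20 at absent interactions (16 pairs), 0.03 at listed ones (6 pairs) and 0.32 over all, and at 25 contacts or more -0.29, -0.46 and -0.14. Scaling by the model contacts in place of the shared interactions moved the median over all to -0.22, that at absent interactions to -0.36 and that at listed ones to -0.51. With it 4 of the 376 were called, against a background of 0.386%, and 11 of the 327 at listed interactions. Each of these was lower after IAA, as were 54 of the 60 called over all shared interactions.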

How the data were processed

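Per the labels, each of 4 groups (9 libraries) has 1 interaction list pooled over its replicates. Per the file headers, a row is a pair of bins (1 kb for CTCF and RAD21, 2 kb for H3K27ac) with a deposited contact count, which the authors did not normalise, the coverage count of both bins, a predicted contact count, and a p-value and q-value. All deposited q-values are under 0.05. Per the submitters' processing notes, the build was mm10 and Trim Galore, BWA, MACS2 and deepTools were used. The interaction lists are named for FitHiC, whose version and settings are not given in the sources used here. Each list's depth is given as model contacts, the predicted count divided by its probability in the authors' model.

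Start sites and gene models came from GENCODE M21 basic, sequence from GRCm38. A motif match had to lie whole within a bin. The motif core and its 1 mismatch were taken from earlier work on these data. Members, gene lists, tests and rules were chosen with earlier results of these data known. Coordinates count from 1. Weighted shares average listed interactions over classes of span and contact count in the proportions of absent ones.

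Named interactions, none within 5 bins at both ends of another, were the 5 with most contacts, the 3 highest over prediction, the 3 longest, the 5 strongest with start sites at both ends, the 3 strongest without RAD21-list anchors, the 5 with most untreated H3K27ac contacts, and any with a changed H3K27ac interaction. Up to 4 genes per list were named, in order of contacts. The exact binomial test was run across all shared H3K27ac interactions with SciPy 1.17.1 under Python 3.11.15 and pandas 2.3.3, and checked on simulated data. Alternatives covered the RAD21 tolerance, contact minimum, q threshold, clusters, anchors, start sites, motif, overlap and scaling.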

Additional observations from a re-analysis of the deposited data

How the results depend on the processing

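No paired analysis was possible because each list joins all replicates of its group, so no replicate was left out. Of 56 combinations of result and alternative, 14 kept the reported value to within its error, 40 moved and 2 turned direction. The cause of these shifts was not tested. The span limit of 20 kb was chosen after seeing the data.

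The share absent from the RAD21 list was 59.4% with the same bins alone, 44.9% within 2 bins and 40.0% within 5 bins, 24.7% at 20 contacts or more, 42.1% at a CTCF q-value of 0.01 or less, and 55.1% with 1 interaction per cluster. The difference in median span (absent minus listed) was -12 kb with the same bins alone and with clusters, and -63 kb at 20 contacts. It turned to 9 kb at q of 0.01 or less and to 11 kb at spans of 20 kb or more. The log2 difference in contacts over prediction was -0.66 with the same bins, -0.55 within 2 bins, -1.06 at 20 contacts, -0.45 at the stricter q, -0.72 with clusters and -0.53 from 20 kb.

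RAD21-list anchors at both ends were found in 57.6% with the same bins, 46.0% within 2 bins, 56.8% at 20 contacts, 45.7% with clusters, 49.2% from 20 kb, and 42.3% where the anchor had to be the same bin. A start site was found in 25.5% with the same bins, 33.9% at 20 contacts, 26.9% at the stricter q, 25.7% from 20 kb, 39.3% within 1 bin of the anchor and 31.9% for all annotated genes. An H3K27ac interaction was found in 6.07% with the same bins, 10.8% at 20 contacts, 4.72% with clusters, 3.48% from 20 kb and 8.72% within 1 bin. Cores were convergent in 34.1% at 20 contacts, 54.2% at the stricter q, 51.5% from 20 kb and 47.5% with 0 mismatches. In the settings that change the RAD21 tolerance, contact minimum, q, clusters or span, start sites stayed more frequent, and H3K27ac interactions and convergent cores less frequent, in absent than in listed interactions. At 20 contacts the H3K27ac shares came close, at 10.8% and 11.9%, with median spans of 46 kb and 109 kb.

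Of the H3K27ac interactions at absent pairs, 50.1% were called again with at least 10 contacts and 57.0% within 1 bin, against 48.7% and 65.7% of all untreated H3K27ac interactions and 35.0% and 35.8% of those at listed pairs. Scaled by the model contacts, the median log2 ratio was -0.36 (-0.22 over all shared interactions) and 4 interactions were called (60 of all 15551). Precision is limited by the counts in single bin pairs, with a median of 14 in absent interactions.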
